A study of Mus musculus with 9 samples.

Results

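The genes described here are the epithelial serine proteases of the Tmprss and kallikrein (Klk) families, the clade B serpins (Serpinb) and 6 genes that act with them. Members were taken by symbol, as the rows of the deposited count table named Tmprss or Serpinb with a number and, at most, a letter or digit after it, or Klk with a number alone, which leaves out the Klk1b genes, plus St14, Prss8, Prss22, Prss27, Spint1 and Spint2. This gave 64 genes of the 56481 symbols in the table, namely 18 type II transmembrane serine proteases (Tmprss genes and St14), 13 kallikreins, 3 other trypsin-like proteases (Prss8, Prss22 and Prss27), 2 Kunitz inhibitors (Spint1 and Spint2) and 28 clade B serpins.

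Type II transmembrane serine proteases sit in the plasma membrane with a trypsin-like domain outside the cell, and they activate other proteases, receptors and sodium channels at epithelial surfaces. Matriptase (St14) and the lipid-anchored protease prostasin (Prss8) activate each other in epithelia, and the Kunitz inhibitors encoded by Spint1 and Spint2 block both. Kallikreins are secreted trypsin- or chymotrypsin-like enzymes, known in stratified epithelia for cutting the junctions of cells that are shed, while clade B serpins mostly stay inside the cell and trap serine or cysteine proteases by a single-use mechanism.

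RNA was sequenced from 3 kinds of mouse cells, with 3 libraries each. The neural crest cells (pNCC) were primary cells taken at E13.5 and kept with 10% fetal bovine serum. The induced cells (iCEC) were made from such cells under 5 µM SB431542 and 5% knockout serum replacement. SB431542 inhibits the TGF-β type I receptor. That medium was changed every 2 days, clusters were seen by day 4, and colonies were studied on day 12. The third group (pCEC) was labelled primary corneal endothelial cells and was kept in the same serum medium as pNCC. No strain or genotype is given for any group, and no age is given for the animals behind pCEC. The libraries of pCEC also differ in the molecule named in their labels, which is polyA RNA for pCEC 1, as for pNCC and iCEC, and total RNA for pCEC 2 and pCEC 3. It is not stated that replicates are separate cultures or animals, so every p-value covers only the spread among the libraries at hand, which may be technical.

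Total counts ran from 27389292 to 47967113 per library, and 3 counts were worth 0.0625 to 0.110 CPM (counts scaled to the library's total). The summed CPM of 10 surface epithelium genes was 16264 to 24312 in iCEC, 37096 to 49941 in pCEC and 92.9 to 143.9 in pNCC. The corneal epithelial keratin Krt12 stood at 8974 to 11145 CPM in pCEC and at no more than 0.0298 CPM in any iCEC or pNCC library. Krt8 went the opposite way, at 635.9 to 2717 CPM in iCEC and 2.74 to 5.63 CPM in pCEC. So did Krt18, at 352.4 to 1395 and 1.11 to 2.11 CPM. Of these 10 genes 3 were called higher and 3 lower in iCEC than in pCEC. The summed level of 10 corneal endothelium genes overlapped between iCEC (761.9 to 840.6 CPM) and pCEC (777.8 to 1037 CPM), and was 244.1 to 506.4 CPM in pNCC. Different genes made up these sums. Aqp1 stood at 0.109 to 0.625 CPM in iCEC and 132.8 to 364.3 CPM in pCEC. The collagen Col8a2 of the endothelial basement membrane was at 0 to 0.119 CPM in iCEC and 37.6 to 152.8 CPM in pCEC. The other way ran Atp1b1 (64.2 to 223.0 CPM in iCEC, 0.949 to 20.1 in pCEC) and Car2 (23.4 to 107.6 and 0.219 to 0.832). Of 5 keratocyte markers, Kera stood at 55.0 to 466.1 CPM and Lum at 71.4 to 357.3 CPM in pCEC, Thy1 and Ptgds were under 0.4 CPM, and the list's sum there (22109 to 27080 CPM) was nearly all Aldh3a1, a crystallin that corneal epithelium also makes. Library iCEC 3 stood apart from iCEC 1 and iCEC 2 for most of the genes described here. How many of these genes were called in iCEC is also given without it, as are the fits of some single genes. The iCEC folds of all other genes include iCEC 3.

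In every pNCC library the proteases were near or at 0, while both iCEC and pCEC expressed many of them strongly. Of the 64 genes, 10 had no count in any library (Klk4, Klk15, Tmprss15, Serpinb13, Serpinb3d, Serpinb6d, Serpinb6e, Serpinb9d, Serpinb9e and Serpinb9h), 24 had counts but stayed under a mean of 10 CPM in every group, and 30 reached 10 CPM in at least 1 group. Between iCEC and pNCC 29 of the genes passed the filter on low counts, and edgeR's quasi-likelihood test called 26 of them higher in iCEC at an adjusted p under 0.05, against 16.1% of all 16293 genes tested. None was called lower, against 15.1% of all genes, and none was lower at an unadjusted p under 0.05 or by DESeq2, which called 27 higher. The 26 genes were 13, 16 or 15 without pNCC 1, pNCC 2 or pNCC 3, and 30 without iCEC 3. A gene with few or no counts in pNCC passes the filter only through the other group, so a difference was built into many of those tested. The same holds for pCEC against pNCC. The median log2 fold change of the 29 genes was 8.38, beside 0.05 for all genes tested. Between pCEC and pNCC 33 passed the filter, of which 28 were called higher, against 30.3% of all 16608 genes, and 4 lower, against 32.2%. Their median was 8.41, beside -0.01 for all genes. Both comparisons use the same pNCC libraries and are not independent of each other. Between iCEC and pCEC 36 genes were tested, of which 7 were called higher in iCEC (Klk8, Serpinb1b, Serpinb2, Serpinb6a, Serpinb6b, Serpinb9 and Serpinb10), against 10.5% of all 16278 genes, and 4 lower (Prss8, Serpinb5, Tmprss12 and Tmprss13), against 9.92%. Among those called, Serpinb1b had 2 to 6 counts in each pCEC library and Tmprss12 had no count in iCEC. They passed the filter only through the group where they were higher, so a difference was built in. In bulk RNA a difference in the share of cells that express a gene cannot be told apart from a difference in RNA per cell.

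**Figure D1:**
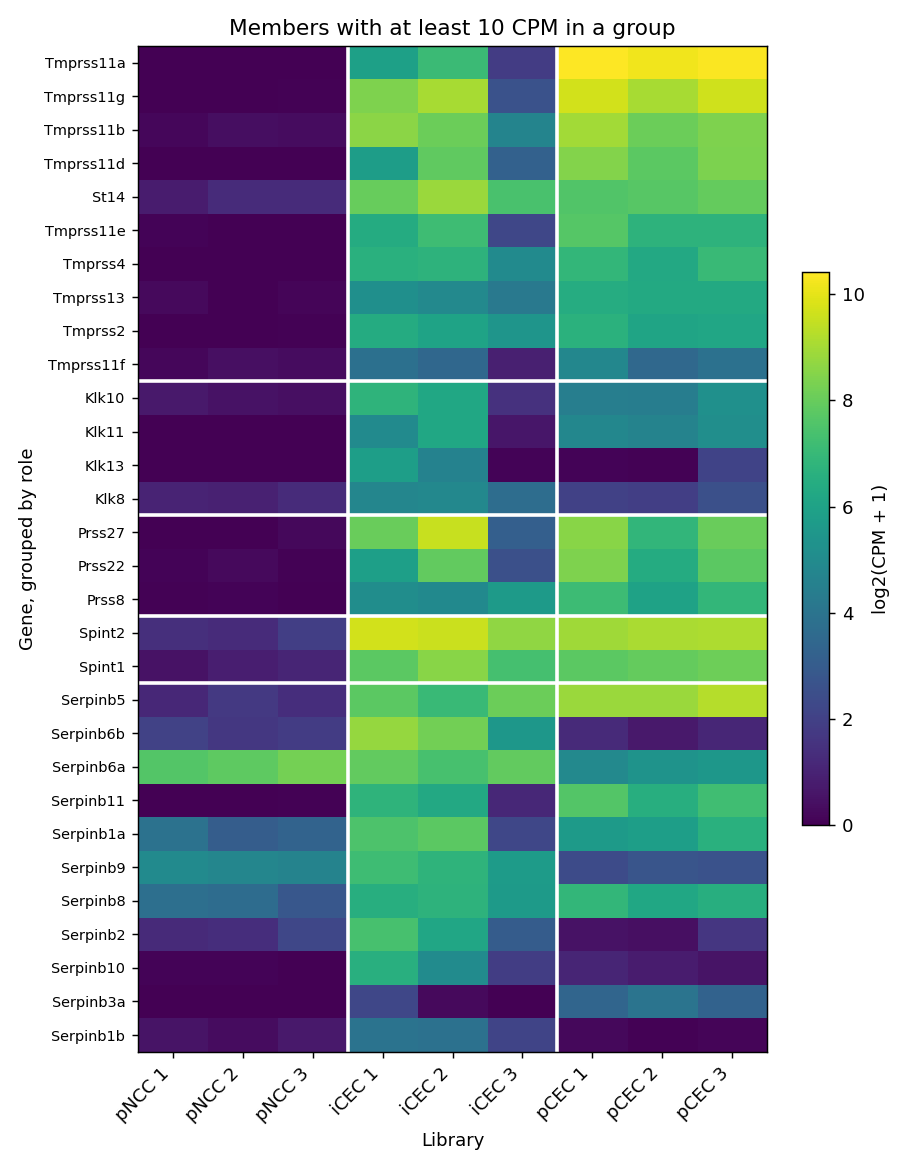
Level of each of the 30 genes that reached a mean of 10 CPM in at least 1 group (rows, grouped by role) in the 9 libraries (columns), as log2(CPM + 1) by colour. The proteases and Kunitz inhibitors are dark in pNCC and bright in iCEC 1, iCEC 2 and pCEC, iCEC 3 is darker than the other iCEC libraries in most rows, and Serpinb6b, Serpinb2 and Serpinb10 are bright in iCEC but dark in pCEC.

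Among the type II transmembrane proteases all 10 that were tested in iCEC against pNCC were called higher, beside 16.1% of all genes. All 12 tested in pCEC against pNCC were also called higher, beside 30.3% of all genes. Apart from St14 these genes had 0 to 12 counts in each pNCC library. They passed the filter on low counts only through the other group, so a difference was built in. Tmprss4, an epithelial protease of this family, had no count in pNCC and stood at 97.0, 104.2 and 30.5 CPM in iCEC 1, 2 and 3, and at 117.4, 77.1 and 130.7 CPM in pCEC 1, 2 and 3. It was at least 868-fold higher in iCEC (adjusted p = 0.00397) and at least 1218-fold higher in pCEC (adjusted p = 2.49e-05) than in pNCC. Tmprss2, known for cleaving the surface proteins of respiratory viruses, stood at 83.2, 65.3 and 41.7 CPM in iCEC and at 99.7, 66.7 and 69.7 CPM in pCEC, with counts in only 1 pNCC library. Its ratio to pNCC was 3336 in iCEC (95% counting interval 923 to 27553) and 3997 in pCEC (1106 to 33010). Without pNCC 3 no count of Tmprss2 remained in pNCC, and 15.9% of the exons of Tmprss4 overlap Gm17099. The iCEC and pCEC values of both genes overlapped, and neither was called between those groups, with adjusted p = 0.469 for Tmprss4 and adjusted p = 0.405 for Tmprss2.

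Per kilobase of exon, matriptase had the highest level of this family in pNCC, where St14 stood at 0.746, 1.41 and 1.43 CPM. It reached 252.3, 453.7 and 172.1 CPM in iCEC and 189.3, 206.4 and 245.0 CPM in pCEC. St14 was thus 254-fold higher in iCEC (log2 fold change 7.99 ± 0.652, SE, adjusted p = 0.000874) and 195-fold higher in pCEC (7.61 ± 0.315, adjusted p = 3.00e-06). The iCEC values lay on both sides of the pCEC range, and the difference between the groups was 0.36 ± 0.415 on the log2 scale (adjusted p = 0.579). Tmprss13, a relative found in stratified epithelia, stood at no more than 0.187 CPM in pNCC, at 35.4, 28.9 and 17.3 CPM in iCEC and at 85.5, 79.9 and 78.6 CPM in pCEC. Every pCEC library lay above every iCEC library. Tmprss13 was 272-fold higher in iCEC and 864-fold higher in pCEC than in pNCC, and 3.20-fold lower in iCEC than in pCEC (log2 fold change -1.68 ± 0.312, adjusted p = 0.0142). That last call was lost without pCEC 1, pCEC 2 or pCEC 3 (adjusted p = 0.0566, 0.056 and 0.0597), with a log2 fold change between -1.70 and -1.67. The values against pNCC rest on few counts there: without pNCC 1 or pNCC 2 the log2 fold change of Tmprss13 was 8.81 or 7.48 in iCEC (8.09 with all libraries) and 10.47 or 9.15 in pCEC (9.75 with all libraries).

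The 7 Tmprss11 genes lie next to each other on the minus strand of chromosome 5 (86231481 to 86745815, GENCODE M21 on mm10), in the order Tmprss11c, d, a, g, f, b and e. They include the airway trypsin-like protease Tmprss11d and are known from squamous and airway epithelia. The cluster as a whole was expressed in pCEC and in iCEC, with the exception of Tmprss11c, which had no count in pNCC and a mean of 0.119 CPM in iCEC and 0.131 CPM in pCEC. Tmprss11a was at 0 in all 3 pNCC libraries, at 58.8, 133.8 and 2.65 CPM in iCEC and at 1358, 1177 and 1289 CPM in pCEC. Tmprss11g stood at 340.3, 530.0 and 5.15 CPM in iCEC and at 835.8, 527.9 and 804.0 CPM in pCEC, with 0.0571 CPM in pNCC 3 and none in the other pNCC libraries. Tmprss11b stood at 384.7, 266.0 and 25.2 CPM in iCEC and at 492.5, 264.6 and 335.2 CPM in pCEC, against 0.124 to 0.293 CPM in pNCC. In these 3 genes iCEC 3 was far below iCEC 1 and iCEC 2, while the pCEC libraries lay closer together.

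The remaining expressed genes of the cluster showed the same split within iCEC. Tmprss11d had no count in pNCC and stood at 54.8, 229.7 and 8.51 CPM in iCEC and at 355.4, 217.2 and 326.2 CPM in pCEC. Tmprss11e, a relative known from squamous epithelium, stood at 84.0, 143.7 and 3.66 CPM in iCEC and at 203.6, 105.6 and 103.7 CPM in pCEC, with 0.0622 CPM in pNCC 1 alone. Tmprss11f stood at 13.2, 10.1 and 0.893 CPM in iCEC, 27.1, 10.6 and 13.6 CPM in pCEC and 0.124 to 0.352 CPM in pNCC. All 6 genes were called higher than in pNCC in both groups. The difference was at least 732-fold in iCEC and at least 14332-fold in pCEC for Tmprss11a (adjusted p = 0.0279 and 2.23e-06), and at least 1098-fold and 3368-fold for Tmprss11d (adjusted p = 0.0214 and 1.09e-05). The ratio for Tmprss11g was 15394 in iCEC (95% counting interval 4261 to 127119) and 36073 in pCEC (9986 to 297871), that for Tmprss11e 4036 (1117 to 33335) and 7036 (1947 to 58101), and fitted folds were 995 and 1648 for Tmprss11b and 33.1 and 71.2 for Tmprss11f. Among these, Tmprss11b was the only gene whose call in iCEC was kept whichever single library was left out. Without 1 of the pNCC libraries the adjusted p rose to 0.0672 to 0.0709 for Tmprss11a, 0.0549 to 0.059 for Tmprss11d and 0.0813 to 0.0874 for Tmprss11f, to 0.0636 for Tmprss11e without pNCC 1, and to 0.0508 and 0.067 for Tmprss11g without pNCC 1 and pNCC 3. Without iCEC 1 it was 0.0722 for Tmprss11a and 0.0541 for Tmprss11d, and without iCEC 2 it was 0.0581 for Tmprss11a. Without iCEC 3 it was 0.00158 for Tmprss11a and 0.00427 for Tmprss11d. Leaving out iCEC 2 gave a log2 fold change of 12.92 for Tmprss11g (13.73 with all libraries) and 10.93 for Tmprss11e (11.81). With pNCC 1 left out no count of Tmprss11e remained in pNCC, and with pNCC 3 left out none of Tmprss11g, so no fold was taken from those fits.

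The make-up of the cluster differed between the groups. Per kilobase of exon, Tmprss11a made up 33.3%, 42.5% and 36.7% of the summed Tmprss11 level in the pCEC libraries and 4.75%, 7.35% and 3.93% in the iCEC libraries. These ranges did not overlap, and iCEC 3 lay with the other iCEC libraries in this measure. Tmprss11b took 42.6% and 51.3% in iCEC 1 and iCEC 3, less in iCEC 2, and 16.6%, 13.1% and 13.1% in pCEC, where every share was below that of iCEC 2. Tmprss11a differed between iCEC and pCEC by -4.34 ± 1.25 on the log2 scale (adjusted p = 0.0553) and was not called, although every pCEC library lay above every iCEC library. It was called by DESeq2 (adjusted p = 0.000107), in 1 fit over 9 libraries (adjusted p = 0.0471), by total counts (adjusted p = 0.0483) and without iCEC 3, at -3.74 (adjusted p = 0.00205), and was the only Tmprss11 gene called in any of the alternatives run for that comparison. In the other alternatives Tmprss11a had adjusted p from 0.0551 to 0.381. The other 5 expressed Tmprss11 genes had log2 fold changes from -1.66 to -0.75, below 0 in each case and below the threshold in none (adjusted p from 0.310 to 0.604). In ratio to the other Tmprss genes, the Tmprss11 genes summed per kilobase to 8.19, 7.55 and 7.20 in pCEC 1, 2 and 3 and to 3.62, 5.45 and 0.514 in iCEC 1, 2 and 3.

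**Figure D2:**
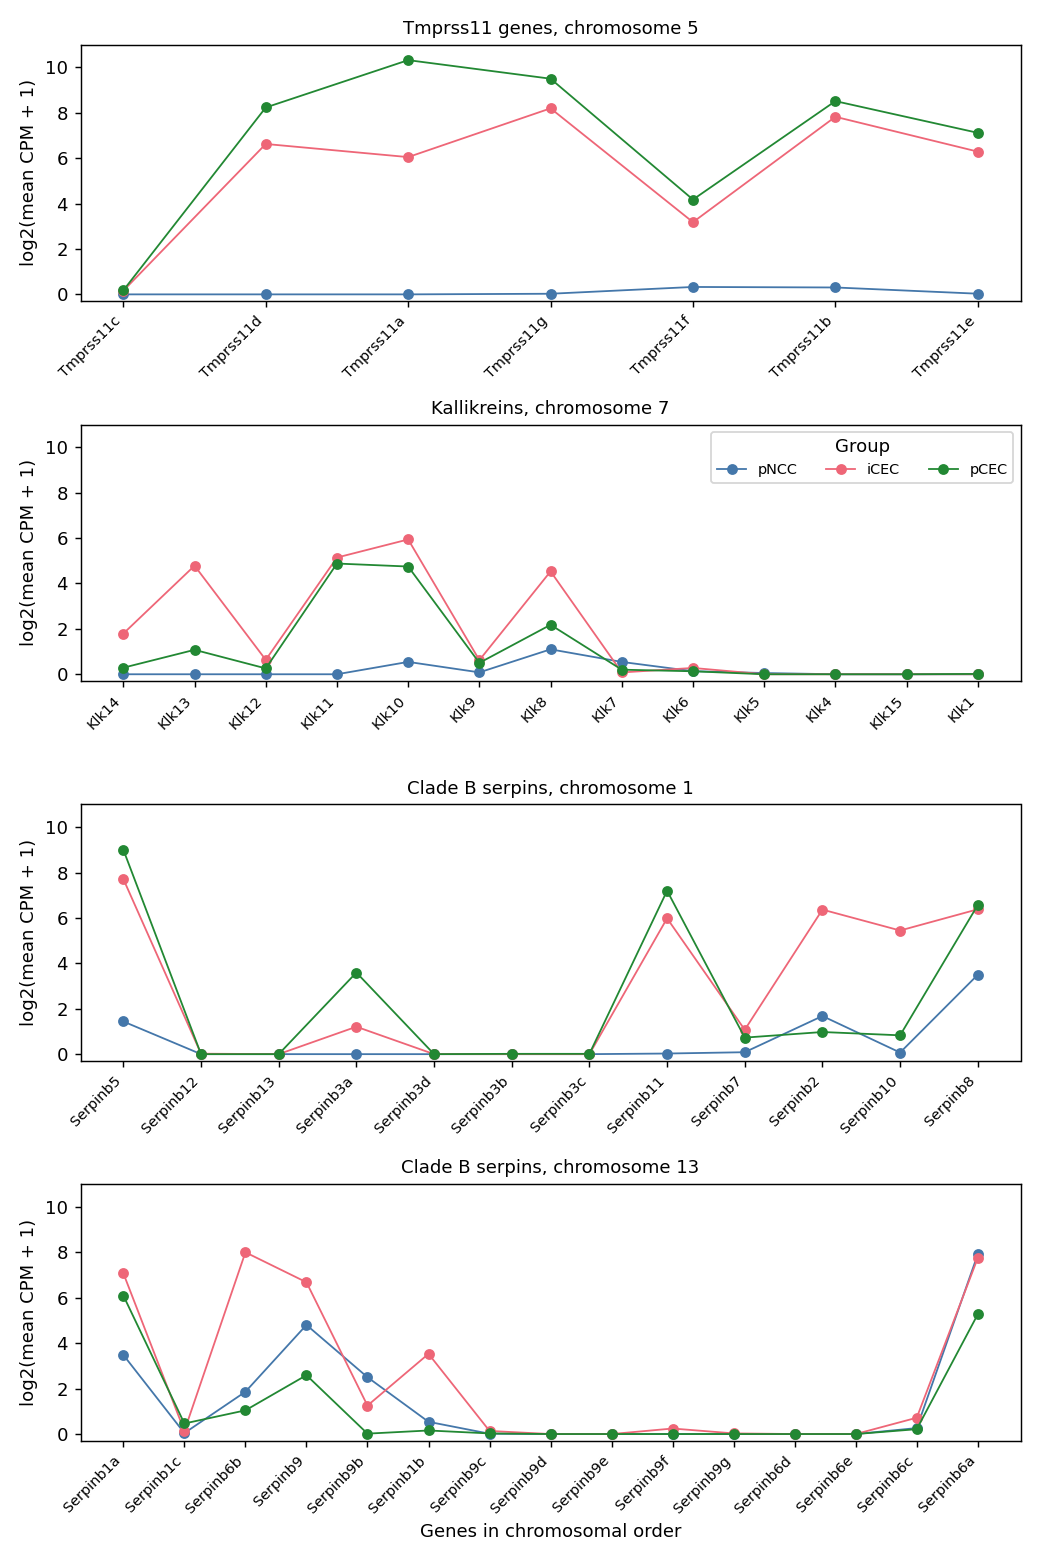
Mean level per group, as log2(mean CPM + 1), of genes in their chromosomal order within the Tmprss11, kallikrein, chromosome 1 serpin and chromosome 13 serpin clusters, with 1 line per group. Tmprss11a is the highest gene of its cluster in pCEC and not in iCEC, the kallikreins that reached 10 CPM lie from Klk13 to Klk8, and Serpinb2 and Serpinb10 on chromosome 1 and Serpinb6b, Serpinb9 and Serpinb1b on chromosome 13 stand above both other groups in iCEC.

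Of the other trypsin-like proteases all 3 were called higher in iCEC and in pCEC than in pNCC, beside 16.1% and 30.3% of all genes. None had more than 7 counts in a pNCC library, so here too a difference was built in by the filter. Prostasin (Prss8) stood at 0.0311, 0.0586 and 0 CPM in pNCC, at 33.7, 29.3 and 49.4 CPM in iCEC and at 137.9, 63.7 and 119.2 CPM in pCEC. Its ratio to pNCC was 1243 in iCEC (95% counting interval 425 to 6029, adjusted p = 0.000431) and 3546 in pCEC (1213 to 17197, adjusted p = 6.90e-06). All iCEC values were below all pCEC values, and Prss8 was 3.12-fold lower in iCEC than in pCEC (log2 fold change -1.64 ± 0.316, adjusted p = 0.0157). The call was lost without iCEC 1, pCEC 1 or pCEC 3 (adjusted p = 0.0521, 0.0642 and 0.0704). Without pNCC 2 the log2 fold change of Prss8 against pNCC was 10.95 in iCEC (10.13 with all libraries) and 12.57 in pCEC (11.77). Of the exons of Prss8, 6.59% overlap Kat8 in the annotation, and whether the counting used strand is not given. Per kilobase, St14 exceeded Prss8 in iCEC 1 and iCEC 2 (ratios 1.81 and 3.76) and lay below it in iCEC 3 (0.845) and in all pCEC libraries (0.333, 0.785 and 0.498).

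Prss22 and Prss27, secreted or membrane-anchored tryptase relatives of epithelia, varied widely between libraries. Prss22 stood at 58.1, 241.6 and 4.79 CPM in iCEC and at 336.1, 82.7 and 221.4 CPM in pCEC, against 0.0571 to 0.205 CPM in pNCC. Prss27 stood at 263.8, 738.3 and 7.95 CPM in iCEC and at 377.7, 115.3 and 262.5 CPM in pCEC, with 0.171 CPM in pNCC 3 and none in the other pNCC libraries. Within iCEC, replicate 2 was the highest and replicate 3 the lowest library for both genes, and the iCEC and pCEC ranges overlapped. Fitted folds against pNCC were 993 in iCEC and 2064 in pCEC for Prss22 (adjusted p = 0.0108 and 3.30e-05), and 5857 and 4336 for Prss27 (adjusted p = 0.0110 and 3.85e-05). The iCEC calls were lost without any 1 pNCC library, with adjusted p from 0.0503 to 0.0587 for Prss22 and from 0.0572 to 0.0646 for Prss27. Leaving out iCEC 2 gave a log2 fold change of 8.18 for Prss22 (9.96 with all libraries) and 11.13 for Prss27 (12.52). Without pNCC 2 it was 10.75 in iCEC and 11.80 in pCEC (11.01 with all libraries) for Prss22, and 11.92 in iCEC and 11.49 in pCEC (12.08 with all libraries) for Prss27. Without pNCC 1 it was 11.96 in iCEC for Prss27, and without pNCC 3 no count of Prss27 remained in pNCC. Neither gene was called between iCEC and pCEC (adjusted p = 0.564 and 0.854).

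Both Kunitz inhibitors were called higher beside their targets. Spint1 stood at 0.435, 0.821 and 1.09 CPM in pNCC, at 217.9, 380.2 and 160.8 CPM in iCEC and at 221.8, 242.8 and 272.4 CPM in pCEC. Spint2 stood at 1.68, 1.44 and 2.80 CPM in pNCC, at 827.0, 762.0 and 408.6 CPM in iCEC and at 489.8, 547.2 and 563.1 CPM in pCEC. Spint1 was 333-fold higher in iCEC and 341-fold higher in pCEC (adjusted p = 0.000809 and 3.27e-06), and Spint2 was 346-fold and 294-fold higher (adjusted p = 0.000540 and 3.15e-06). The iCEC ranges enclosed the pCEC ranges, and the log2 differences between these groups were -0.06 ± 0.381 for Spint1 and 0.22 ± 0.342 for Spint2 (adjusted p = 0.932 and 0.690). Per kilobase, Spint1 and Spint2 together stood at 4.04 ± 1.04 times the sum of St14 and Prss8 in iCEC and at 2.53 ± 0.771 times that sum in pCEC (SD, n = 3), ranges that overlapped.

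Of the 13 kallikreins 4 reached 10 CPM, and all were on the side of the cluster on chromosome 7 that runs from Klk14 to Klk8. Klk10 stood at 107.4, 71.8 and 1.82 CPM in iCEC, 20.9, 20.5 and 36.1 CPM in pCEC and 0.343 to 0.622 CPM in pNCC. Klk11 stood at 30.7, 71.6 and 0.566 CPM in iCEC and at 27.1, 24.0 and 34.0 CPM in pCEC, with no count in pNCC. Both lay above pCEC or within its range in iCEC 1 and iCEC 2 and far below it in iCEC 3. Klk10 was 140-fold higher in iCEC and 62.0-fold higher in pCEC than in pNCC (adjusted p = 0.0174 and 1.64e-05), and Klk11 at least 385-fold and 319-fold higher (adjusted p = 0.0414 and 1.75e-05). The iCEC call was lost without any 1 pNCC library for Klk10 (adjusted p from 0.0744 to 0.0816) and Klk11 (0.0939 to 0.0969), and for Klk11 also without iCEC 1 or iCEC 2 (0.0958 and 0.0838). Klk10 had a log2 fold change of 6.47 without iCEC 1 (7.12 with all libraries). Klk10 was not called between iCEC and pCEC (log2 fold change 1.14 ± 1.15, adjusted p = 0.527), and without iCEC 3 it was called higher in iCEC, at 1.75 (adjusted p = 0.0108).

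Klk8, also called neuropsin and known from skin and brain, was the 1 kallikrein called between iCEC and pCEC. It stood at 1.06, 0.938 and 1.43 CPM in pNCC, at 26.4, 28.0 and 12.0 CPM in iCEC and at 3.02, 2.77 and 4.78 CPM in pCEC, so the 3 groups did not overlap. Klk8 was higher in iCEC (log2 fold change 4.32 ± 0.517) and in pCEC (1.75 ± 0.381) than in pNCC (adjusted p = 0.00262 and 0.00536), and 5.84-fold higher in iCEC than in pCEC (log2 fold change 2.55 ± 0.479, adjusted p = 0.0147). This last call was lost without pCEC 1 or pCEC 2 (adjusted p = 0.069 and 0.0717), and 24.8% of the exons of Klk8 overlap 2310002F09Rik. Klk13 stood at 56.2 and 23.2 CPM in iCEC 1 and iCEC 2, at 0.0595 CPM in iCEC 3, at 0.0598, 0.0555 and 3.21 CPM in pCEC and at 0 in pNCC. It did not pass the filter against pNCC and was not called between iCEC and pCEC (adjusted p = 0.220). The other 9 kallikreins stayed at or below a mean of 2.46 CPM in every group, a level that Klk14 had in iCEC.

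**Figure D3:**
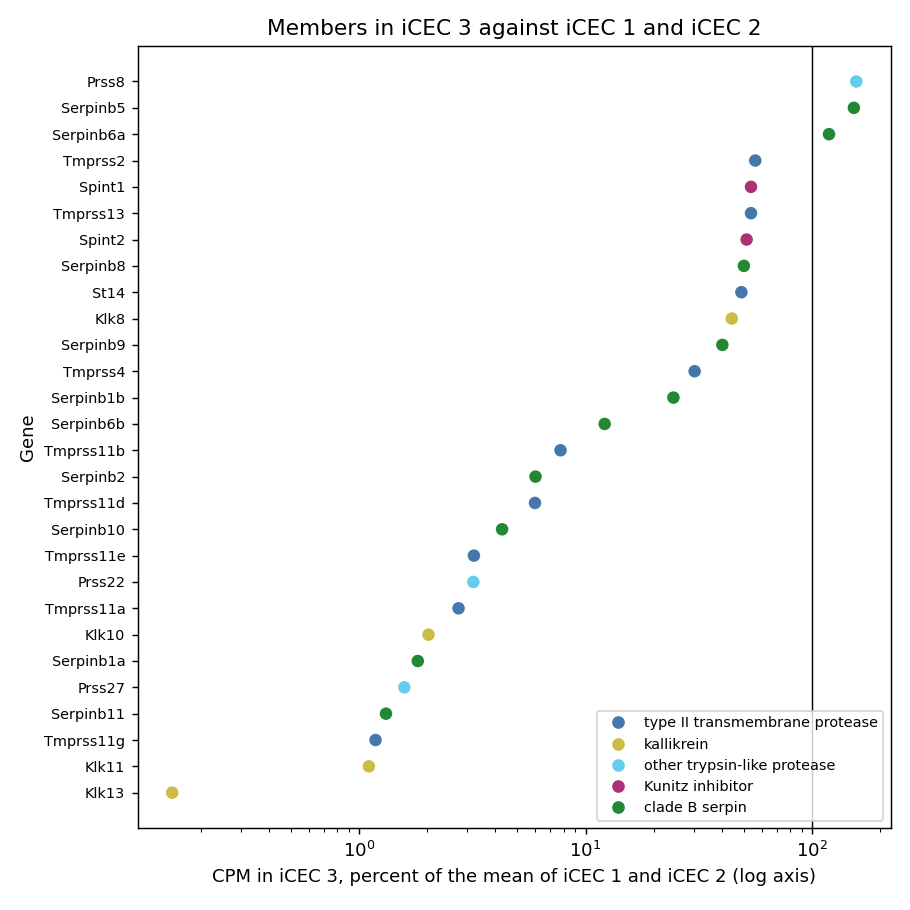
Level of each gene in iCEC 3 as a percent of its mean in iCEC 1 and iCEC 2 (log axis), for the 28 genes that reached a mean of 10 CPM in iCEC, coloured by role. Klk10, Klk11, Klk13, the Tmprss11 genes and Prss27 fall to the left, with Klk13 at 0.150%, while Klk8 (44.2%), St14, Spint2 and Spint1 lie near 50% and Serpinb5 and Prss8 above 100%.

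The split within iCEC was wide for these genes. Of the 28 that reached a mean of 10 CPM in iCEC, 25 (89.3%) were lowest in iCEC 3 and 17 (60.7%) lay more than 3-fold below both other libraries there. Over the 9649 genes at that level tested against pNCC the shares were 30.7% and 5.86%, and over the 2073 of them called higher in iCEC they were 42.0% and 9.31%. iCEC 3 held 1.11% of the mean of iCEC 1 and iCEC 2 for Klk11, 1.18% for Tmprss11g, 1.32% for Serpinb11, 1.59% for Prss27, 1.82% for Serpinb1a and 2.75% for Tmprss11a. In contrast it held 48.8% for St14, 51.4% for Spint2 and 53.8% for Spint1, and 153.0% and 156.8% for Serpinb5 and Prss8. The summed surface epithelium markers of iCEC 3 (23496 CPM) lay between those of iCEC 1 (24312) and iCEC 2 (16264), but single markers differed. Krt8 stood at 635.9, 665.9 and 2717 CPM in iCEC 1, 2 and 3, Krt18 at 352.4, 416.1 and 1395 CPM and Perp at 1756, 1800 and 4844 CPM, while Krt5 was lowest in iCEC 3. The listed epithelial transcription factors were split. Elf3 (247.0, 358.4 and 16.9 CPM), Grhl3 (87.7, 98.4 and 8.63 CPM), Grhl1, Klf4, Klf5, Ovol1 and Pax6 were lowest in iCEC 3. Ehf (618.2, 794.7 and 911.1 CPM), Grhl2 (67.9, 71.4 and 158.4 CPM) and Ovol2 were highest in iCEC 3. Trp63 in iCEC 3 (262.0 CPM) lay between iCEC 1 and iCEC 2 (250.5 and 275.1 CPM). The part of these differences in the protease levels was not tested. Without iCEC 3, 30 genes were called higher in iCEC than in pNCC in place of 26, and the added genes were Klk13, Klk14, Klk9 and Serpinb1a.

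The clade B serpins had a less uniform pattern, and 6 of the 7 genes that were called higher in iCEC than in pCEC belonged to them. Against pNCC, 8 of 11 tested serpins were called higher in iCEC, beside 16.1% of all genes. Of 13 tested in pCEC 8 were called higher and 4 lower, beside 30.3% and 32.2% of all genes. Serpinb5 (maspin), a clade member without protease inhibition of the usual kind, made up 58.4% of the summed serpin level per kilobase in pCEC. It stood at 1.24, 2.29 and 1.60 CPM in pNCC, at 222.7, 132.1 and 271.5 CPM in iCEC and at 458.6, 462.1 and 613.6 CPM in pCEC. The 3 groups did not overlap. Serpinb5 was 120-fold higher in iCEC and 328-fold higher in pCEC than in pNCC (adjusted p = 0.000308 and 2.23e-06), and 2.72-fold lower in iCEC than in pCEC (log2 fold change -1.44 ± 0.298, adjusted p = 0.0198). The last call was lost without iCEC 1 or any 1 pCEC library (adjusted p from 0.0513 to 0.0791).

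Serpinb8, known for inhibiting furin, had the highest level per kilobase of the chromosome 1 serpins in pNCC. It stood at 13.1, 11.8 and 6.02 CPM there, at 91.5, 106.1 and 49.4 CPM in iCEC and at 116.8, 73.0 and 91.9 CPM in pCEC. Serpinb11 stood at 0.0571 CPM in pNCC 3 and 0 in the other pNCC libraries, at 108.6, 76.8 and 1.22 CPM in iCEC and at 196.9, 92.3 and 148.2 CPM in pCEC. Serpinb8 was 8.33-fold higher in iCEC and 10.0-fold higher in pCEC (adjusted p = 0.00585 and 0.000107). The ratio of Serpinb11 to pNCC was 3457 in iCEC (95% counting interval 957 to 28550, adjusted p = 0.0124) and 7304 in pCEC (2022 to 60316, adjusted p = 6.43e-06). Neither was called between iCEC and pCEC (adjusted p = 0.619 and 0.498), where the ranges overlapped. The call of Serpinb11 in iCEC was lost without any 1 pNCC library (adjusted p from 0.0623 to 0.0798), and its log2 fold change was 10.86 without iCEC 1 (11.48 with all libraries). With pNCC 3 left out no count of Serpinb11 remained in pNCC. Serpinb3a, a relative of the squamous cell carcinoma antigens, stood at 9.55, 14.9 and 8.80 CPM in pCEC (at least 125-fold above pNCC, adjusted p = 6.93e-05), at 3.71, 0.218 and 0 CPM in iCEC and at 0 in pNCC. It did not pass the filter between iCEC and pNCC and was not called between iCEC and pCEC (adjusted p = 0.209), except without iCEC 1 (adjusted p = 0.0313). Of the 50-base stretches of its exons 15.0% also occur in other genes, chiefly Gm8080, so its counts are uncertain to that extent.

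Serpinb2 and Serpinb10, which are neighbours on chromosome 1, were high in iCEC and at or below 3.65 CPM in every library of the other groups. Serpinb2, the plasminogen activator inhibitor of epithelia and macrophages, stood at 167.3, 70.2 and 7.14 CPM in iCEC, 1.37, 1.58 and 3.65 CPM in pNCC and 0.419, 0.361 and 2.12 CPM in pCEC. Serpinb10 (bomapin), known from blood-forming cells, stood at 93.4, 31.7 and 2.68 CPM in iCEC, at 0.0622, 0.088 and 0 CPM in pNCC and at 1.11, 0.749 and 0.475 CPM in pCEC. All iCEC values of both genes lay above those of the other groups, with iCEC 3 the nearest to them. Serpinb2 was 38.5-fold higher in iCEC than in pNCC and 79.0-fold higher than in pCEC (adjusted p = 0.0222 and 0.0272), and was not called between pCEC and pNCC (adjusted p = 0.286). Serpinb10 was 847-fold and 52.1-fold higher in iCEC (adjusted p = 0.00964 and 0.0270), and 16.0-fold higher in pCEC than in pNCC (adjusted p = 0.00327). The call against pCEC was lost for both genes without iCEC 1 or any 1 pCEC library (adjusted p from 0.0568 to 0.107 for Serpinb2 and from 0.0538 to 0.11 for Serpinb10), and for Serpinb2 also without iCEC 2 (0.0513). Against pNCC the call of Serpinb2 was lost without any 1 pNCC library (adjusted p from 0.0654 to 0.0979) and that of Serpinb10 without pNCC 1 (adjusted p = 0.0539). Leaving out iCEC 1 gave a log2 fold change against pNCC of 4.24 for Serpinb2 (5.27 with all libraries, 5.87 without pNCC 3) and 8.48 for Serpinb10 (9.73 with all libraries, 10.36 without pNCC 2), and against pCEC it was 5.26 for Serpinb2 (6.30) and 4.44 for Serpinb10 (5.70). Against pCEC it was 6.92 for Serpinb2 without iCEC 3 and 7.65 without pCEC 3, and in pCEC against pNCC it was 4.62 for Serpinb10 without pNCC 2 (4.00 with all libraries). Without pCEC 3 Serpinb2 was called lower in pCEC than in pNCC, at -2.39 (adjusted p = 0.0208). Both genes share exon sequence, 12.4% of the exons of Serpinb2 and 8.34% of those of Serpinb10, so part of their counts could have been assigned to either. The annotation lists Serpinb10 as a polymorphic pseudogene.

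**Figure D4:**
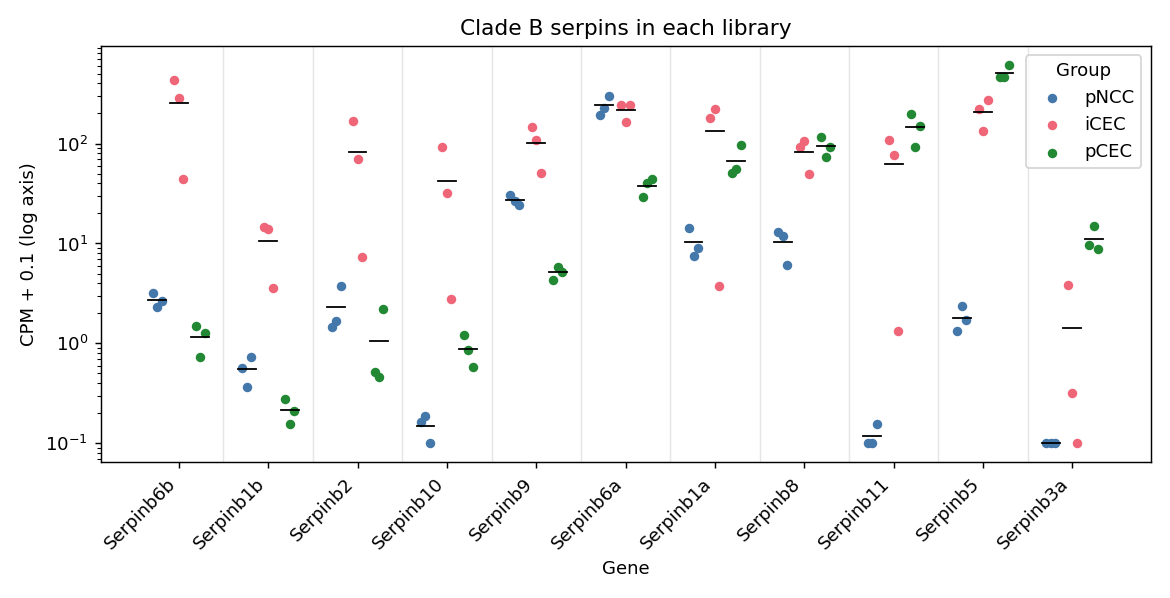
CPM + 0.1 on a log axis for the 11 clade B serpins that reached a mean of 10 CPM in a group, with 1 point per library and a bar at the group mean. Serpinb6b, Serpinb1b, Serpinb2, Serpinb10 and Serpinb9 are above both other groups in every iCEC library, Serpinb6a is lowest in pCEC, and Serpinb5 is highest in pCEC.

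On chromosome 13, Serpinb6b, Serpinb9 and Serpinb1b were higher in iCEC than in both other groups, and Serpinb6a was lower in pCEC than in both. Serpinb6b stood at 3.11, 2.23 and 2.57 CPM in pNCC, at 434.4, 289.0 and 43.9 CPM in iCEC and at 1.38, 0.638 and 1.17 CPM in pCEC. Serpinb9, the inhibitor of granzyme B, stood at 30.8, 26.2 and 23.9 CPM in pNCC, at 145.0, 109.4 and 51.1 CPM in iCEC and at 4.25, 5.77 and 5.08 CPM in pCEC. For both genes the 3 groups did not overlap, with iCEC highest and pCEC lowest. Serpinb6b was 102-fold higher in iCEC than in pNCC and 230-fold higher than in pCEC (adjusted p = 0.00513 and 0.00606). Serpinb9 was 3.91-fold and 18.9-fold higher (adjusted p = 0.0193 and 0.00381). In pCEC Serpinb9 was 4.88-fold lower than in pNCC (adjusted p = 4.55e-05) and Serpinb6b 2.28-fold lower (adjusted p = 0.0309). The last call was lost without pCEC 2, pCEC 3 or any 1 pNCC library (adjusted p from 0.0501 to 0.0917). The call of Serpinb9 in iCEC against pNCC was lost without iCEC 2 (adjusted p = 0.0523) or any 1 pNCC library (adjusted p from 0.0719 to 0.0862), while its call against pCEC was kept without any 1 library. Serpinb6b had a log2 fold change against pCEC of 7.25 without iCEC 1 (7.84 with all libraries, adjusted p = 0.0139).

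Serpinb6a, an inhibitor of trypsin-like proteases and cathepsin G, had the highest level per kilobase of all these genes in pNCC. It stood at 194.6, 225.3 and 301.4 CPM there, at 241.0, 164.0 and 240.5 CPM in iCEC and at 29.3, 39.8 and 44.0 CPM in pCEC. The iCEC and pNCC ranges overlapped, and every pCEC value lay below both. Between iCEC and pNCC the log2 fold change was -0.17 ± 0.237 (adjusted p = 0.623), while Serpinb6a was 5.83-fold lower in pCEC than in pNCC (adjusted p = 0.000137) and 5.17-fold higher in iCEC than in pCEC (adjusted p = 0.00370). Of its exons 29.3% overlap genes of the opposite strand. Serpinb1a, an inhibitor of neutrophil elastase, stood at 14.3, 7.39 and 8.85 CPM in pNCC, at 178.9, 220.5 and 3.63 CPM in iCEC and at 50.2, 55.5 and 96.9 CPM in pCEC. It was 7.34-fold higher in pCEC than in pNCC (adjusted p = 0.000522), but with iCEC 3 below every pNCC library it was not called in iCEC (log2 fold change 3.83 ± 1.33, adjusted p = 0.0750). With all iCEC libraries it was called higher than in pNCC by DESeq2 (adjusted p = 0.00227) and in 1 fit over 9 libraries (adjusted p = 0.0351), against adjusted p from 0.0703 to 0.320 in the other fits that kept iCEC 3. Without iCEC 3 it was called higher in iCEC, against pNCC at 4.37 (adjusted p = 0.000404) and against pCEC at 1.52 (adjusted p = 0.0194, against 0.622 with all libraries). Its paralog Serpinb1b stood at 14.4, 13.8 and 3.45 CPM in iCEC, 0.264 to 0.628 CPM in pNCC and 0.0555 to 0.180 CPM in pCEC. It was 24.2-fold higher in iCEC than in pNCC and 85.9-fold higher than in pCEC (adjusted p = 0.00816 and 0.00596). With 2 to 6 counts in each pCEC library, Serpinb1b passed the filter against pCEC only through iCEC, so that difference was built in.

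Blood cells are also known to express several of these serpins. Of 10 leukocyte markers, 3 were tested between iCEC and pNCC, of which 1 was called lower and the others were not called. Added up, the markers came to 126.2, 195.5 and 18.4 CPM in iCEC 1, 2 and 3, 58.7 to 310.1 in pCEC and 20.7 to 31.1 in pNCC. In iCEC 1 and iCEC 2 this sum was mostly S100a9, Itgam and Cd68, while Csf1r ran the other way, at 0.167, 0.708 and 15.5 CPM in iCEC 1, 2 and 3. Ptprc, Adgre1, Lyz2, Cd3e and Nkg7 were at 0 in every iCEC library. The part of leukocyte genes in these serpin levels was not tested.

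The serpins called higher in iCEC than in pCEC lay in 2 clusters, on chromosomes 1 and 13. Matches to a loose form of the AP-1 motif were found before genes of the first cluster. AP-1 is a dimer of Fos and Jun proteins that is active in epidermis. In the 250 bases before each gene's start (RefSeq, GRCm38.p6, 54 of the genes matched), motifs were searched on both strands. They were a loose AP-1 motif TGANTCA with any base at N, the ETS motif AGGAAG, the TATA motif TATAAA and the Grainyhead motif AACCNGTT. The stricter AP-1 motif has C or G at N. AP-1 matches were present in 7 of 11 serpin genes on chromosome 1 (Serpinb2, Serpinb5, Serpinb7, Serpinb8, Serpinb10, Serpinb11 and Serpinb12), in 0 of 15 on chromosome 13 and in 0 of 13 kallikreins. Of the 6 Tmprss11 genes with a promoter, Tmprss11d and Tmprss11f had a match. Among these serpin and Tmprss11 matches, only those of Serpinb7, Serpinb8 and Tmprss11f were the stricter TGAGTCA. The others were TGAATCA or TGATTCA. Over all 32851 promoters 6.75% held this motif, and so did 17.2% of the 64 promoter entries of the 54 matched genes, some of which have several starts. The ETS motif was in 40.6% of these entries against 29.5% of all, the TATA motif in 17.2% against 12.4%, and the Grainyhead motif in 0% against 1.79%. The promoters of the 5 serpins of chromosome 1 that hold the motif and reached 10 CPM, and that of Tmprss11d as an example from another cluster, are shown with the AP-1 matches in capitals.
Serpinb5, chr1:106860925-106861174, plus strand: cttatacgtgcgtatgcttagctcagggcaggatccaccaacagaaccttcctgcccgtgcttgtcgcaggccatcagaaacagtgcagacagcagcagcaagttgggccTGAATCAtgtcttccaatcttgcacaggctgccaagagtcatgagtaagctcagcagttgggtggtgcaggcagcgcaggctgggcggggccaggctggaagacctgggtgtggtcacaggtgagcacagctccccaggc
Serpinb11, chr1:107362064-107362313, plus strand: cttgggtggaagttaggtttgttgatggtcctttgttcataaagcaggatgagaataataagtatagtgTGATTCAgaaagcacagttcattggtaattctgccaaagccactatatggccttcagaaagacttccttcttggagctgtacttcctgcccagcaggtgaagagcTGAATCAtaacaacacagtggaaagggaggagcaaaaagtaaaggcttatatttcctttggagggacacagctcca
Serpinb2, chr1:107511173-107511422, plus strand: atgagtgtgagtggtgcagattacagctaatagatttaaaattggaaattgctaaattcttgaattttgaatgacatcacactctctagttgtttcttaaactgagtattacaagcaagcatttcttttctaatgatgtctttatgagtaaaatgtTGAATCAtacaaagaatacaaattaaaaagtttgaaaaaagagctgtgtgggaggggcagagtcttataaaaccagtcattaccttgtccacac
Serpinb10, chr1:107528753-107529002, plus strand: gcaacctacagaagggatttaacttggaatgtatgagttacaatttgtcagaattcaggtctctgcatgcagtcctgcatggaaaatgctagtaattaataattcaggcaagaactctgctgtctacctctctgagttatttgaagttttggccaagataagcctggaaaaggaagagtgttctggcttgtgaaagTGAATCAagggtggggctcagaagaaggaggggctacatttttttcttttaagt
Serpinb8, chr1:107589756-107590005, plus strand: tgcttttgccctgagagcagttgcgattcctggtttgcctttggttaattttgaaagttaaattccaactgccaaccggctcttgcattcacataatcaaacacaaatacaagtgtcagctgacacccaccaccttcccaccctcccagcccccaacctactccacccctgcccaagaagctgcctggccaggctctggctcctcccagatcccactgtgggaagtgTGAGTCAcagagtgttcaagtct
Tmprss11d, chr5:86373388-86373637, minus strand: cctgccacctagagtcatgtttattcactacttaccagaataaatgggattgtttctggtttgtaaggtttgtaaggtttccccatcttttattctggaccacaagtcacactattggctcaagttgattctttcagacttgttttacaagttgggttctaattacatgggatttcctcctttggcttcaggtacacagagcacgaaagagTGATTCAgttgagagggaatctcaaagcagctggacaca

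Counted back from the start of the gene, the match lay at bases 140 to 134 in Serpinb5, 94 to 88 in Serpinb2, 54 to 48 in Serpinb10, 23 to 17 in Serpinb8 and 39 to 33 in Tmprss11d. Serpinb11 held a pair of matches, at bases 181 to 175 and 76 to 70. None of them overlapped a match to another motif searched. The printed serpin promoters with a match include genes high in iCEC alone (Serpinb2 and Serpinb10), genes not called between iCEC and pCEC (Serpinb8 and Serpinb11) and a gene lower in iCEC than in pCEC (Serpinb5). A match describes these letters only, and no binding data were at hand.

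Between iCEC and pCEC 25 of the 36 genes tested were not called, while the 7 called higher in iCEC and the 4 called lower stand beside 10.5% and 9.92% of all genes tested. The median log2 fold change of the 36 genes was -0.17, beside 0.04 for all genes tested. The count of 7 was 11 without iCEC 3 and 4 without pCEC 1 or pCEC 2, and the count of 4 lower was 0 by edgeR without pCEC 1 or pCEC 3, where 5 and 5 were lower at an unadjusted p under 0.05. With pCEC represented by its polyA library alone, and that library assumed to vary like iCEC, edgeR called none of these genes, although 6 were higher and 3 lower in iCEC at an unadjusted p under 0.05. Of the 22 genes called higher in both iCEC and pCEC against pNCC, 17 were not called between these groups. Most of all genes tested were also not called there (10.5% higher and 9.92% lower in iCEC), so this count is not particular to these genes. The share among all genes higher in both groups was not computed. Missing the threshold does not show that the levels were alike, since the SE of the log2 fold change exceeded 1 for Klk10, Klk11, Prss22, Prss27, Serpinb11, Tmprss11a, Tmprss11d, Tmprss11e and Tmprss11g.

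**Figure D5:**
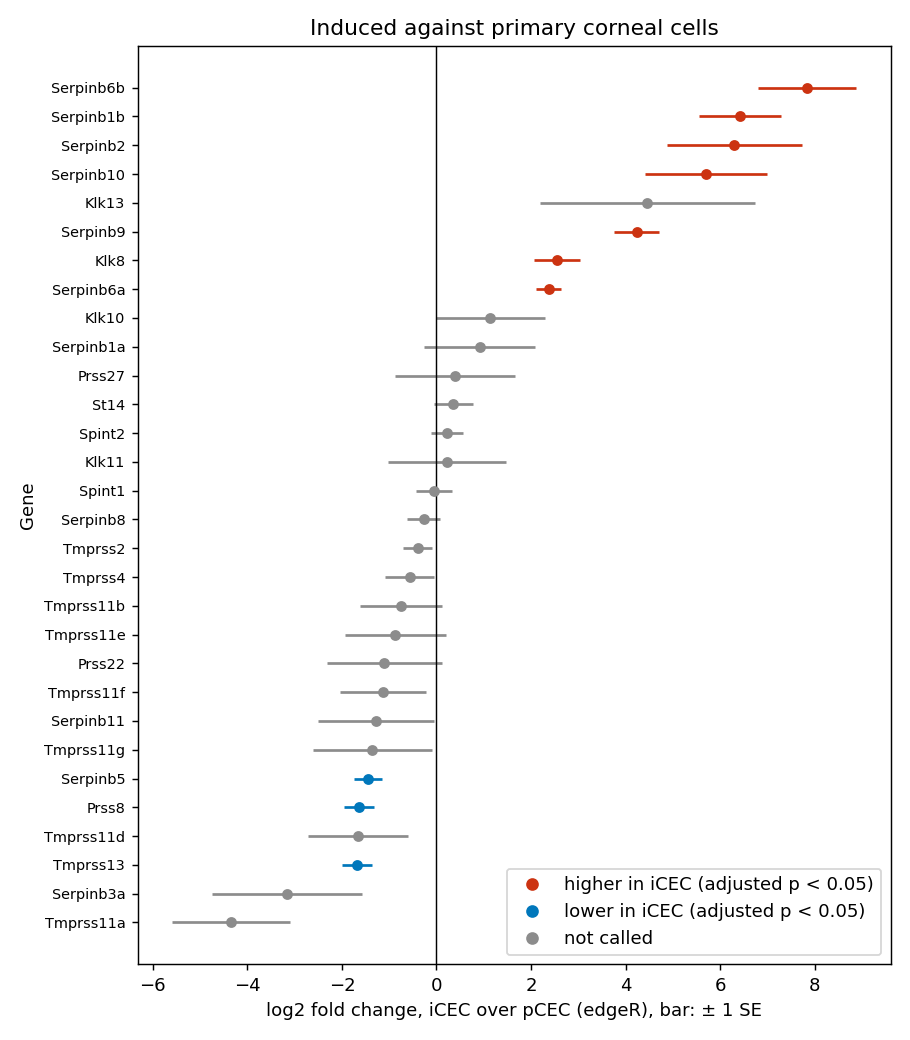
Log2 fold change of iCEC over pCEC from edgeR, with bars of ± 1 SE, for the 30 genes that reached a mean of 10 CPM in a group, sorted by value and coloured where the adjusted p was under 0.05. The clade B serpins Serpinb6b, Serpinb1b, Serpinb2 and Serpinb10 lie furthest to the right, Serpinb5, Prss8 and Tmprss13 are the genes called lower in iCEC, and the Tmprss11 genes have wide bars.

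Among genes tested that stayed under 10 CPM in every group, the 1 tested in iCEC against pNCC was not called. Of 5 tested in pCEC against pNCC 4 were called higher and 1 lower, beside 30.3% and 32.2% of all genes. Of 6 tested between iCEC and pCEC 1 was called lower, beside 9.92% of all genes. The 4 called higher had 0 to 4 counts in each pNCC library, and Serpinb9b had 0 or 1 in each pCEC library. They passed the filter only through the other group, so a difference was built in, as for Tmprss12 between iCEC and pCEC. Serpinb9b stood at 3.30, 4.28 and 6.42 CPM in pNCC, at 3.27, 0.817 and 0.0595 CPM in iCEC and at 0, 0 and 0.0365 CPM in pCEC. Its ratio of pNCC to pCEC was 456 (95% counting interval 81.5 to 18053, adjusted p = 9.97e-05), and it was not called between iCEC and pNCC (adjusted p = 0.322). Tmprss12 stood at 1.80, 0.777 and 1.13 CPM in pCEC and 0 in every other library, at least 13.9-fold above pNCC and at least 15.9-fold above iCEC (adjusted p = 0.00100 and 0.0104). The call against iCEC was lost without pCEC 1 or pCEC 3. Tmprss3, a protease needed for hearing, stood at 2.18, 0.693 and 1.64 CPM in pCEC, at least 16.9-fold above pNCC (adjusted p = 0.00142), and was not called between iCEC and pCEC (adjusted p = 0.170). Klk14 stood at 2.65, 4.74 and 0 CPM in iCEC and was not called against pCEC (adjusted p = 0.217).

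Clade B serpins exceeded proteases on a per-length scale in pNCC, but not in pCEC or in iCEC 1 and iCEC 2. Summed over the genes with a known exon length, in CPM per kilobase, the 34 proteases stood at 1.99, 1.58 and 2.26 in pNCC, at 727.1, 1358 and 103.5 in iCEC and at 1491, 798.6 and 1229 in pCEC. The 27 clade B serpins stood at 57.7, 59.0 and 73.3 in pNCC, at 617.3, 437.3 and 195.7 in iCEC and at 317.4, 269.0 and 369.5 in pCEC. The ratio of serpins to proteases was therefore 29.0, 37.2 and 32.4 in pNCC, 0.849, 0.322 and 1.89 in iCEC and 0.213, 0.337 and 0.301 in pCEC. The pNCC values lay apart from all others, while iCEC 2 lay within the pCEC range. The ratio of the Kunitz inhibitors to proteases overlapped between iCEC and both other groups, at 0.264, 0.386 and 0.445 in pNCC, 0.358, 0.224 and 1.43 in iCEC and 0.126, 0.260 and 0.181 in pCEC. In pNCC a single gene, Serpinb6a, made up 70.2% of the serpin sum at 44.5 ± 10.2 CPM per kilobase (SD, n = 3). In iCEC the highest genes by this measure were Prss27 (268.7 ± 295.8), Spint2 (146.2 ± 49.4) and Serpinb6b (113.1 ± 87.2), whose order is within their spread. In pCEC they were Tmprss11a (223.1 ± 16.0), Prss27 (201.0 ± 105.0), Serpinb5 (186.0 ± 32.2) and Prss22 (161.2 ± 95.8), where neighbouring genes also did not differ beyond their spread.

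Genes listed as targets of these proteases, or as tied to such targets, were mostly higher in both groups than in pNCC. Of 15 activation targets and receptors, 7 of 12 tested were higher and 2 lower in iCEC, and 13 of 15 tested were higher and 2 lower in pCEC. Over all genes tested 16.1% were higher and 15.1% lower in iCEC, and 30.3% were higher and 32.2% lower in pCEC. Among the listed genes Cldn7 and Mst1 stood at 0.0622 to 0.352 CPM in pNCC. They passed the filter only through the other group, so a difference was built in. The claudin Cldn7 and the adhesion protein Epcam were 492-fold and 219-fold higher in iCEC (adjusted p = 0.00107 and 0.00128). Epcam is cut by matriptase. The matriptase substrate Cdcp1 was 70.8-fold higher (adjusted p = 0.00118). In pCEC the smallest adjusted p belonged to Epcam (55.2-fold higher, adjusted p = 8.81e-07), Mst1 (222-fold, adjusted p = 1.73e-06) and the sodium channel subunit Scnn1a (56.3-fold, adjusted p = 2.47e-06). Among 14 tested between iCEC and pCEC, 1 was higher in iCEC, Epcam at 3.94-fold (adjusted p = 0.0463), and 2 were lower, Cldn7 at 4.62-fold and Scnn1a at 3.86-fold (adjusted p = 0.0164 and 0.0380). These counts stand beside 10.5% higher and 9.92% lower of all genes.

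Several protease inhibitors outside the clade B serpins and Spint genes were higher in iCEC than in pCEC. Of 12 listed inhibitors in the table, 5 of 7 tested were higher in iCEC than in pNCC and 2 were not called, and 5 of 8 were higher and 1 lower in pCEC. Beside these stand 16.1% of all genes higher in iCEC, and 30.3% higher and 32.2% lower in pCEC. Wfdc2, Wfdc5 and Spink7 stood at 0 to 0.114 CPM in pNCC, so where they were tested a difference was built in by the filter. Slpi, an inhibitor of leukocyte elastase, stood at 185.1 ± 33.4 CPM in iCEC, 7.10 ± 1.49 in pNCC and 2.80 ± 1.32 in pCEC (SD, n = 3). It was 25.9-fold higher in iCEC than in pNCC (adjusted p = 0.000293) and 59.5-fold higher than in pCEC (adjusted p = 0.00187). Spink5, the inhibitor of epidermal kallikreins, stood at 521.7 ± 285.4 CPM in iCEC and was 1115-fold higher there than in pNCC (adjusted p = 0.000809). Wfdc2, a small secreted protein of the same inhibitor class as Slpi, stood at 641.2 ± 383.3 CPM in iCEC and at 51.4 ± 8.11 CPM in pCEC, an 11.8-fold difference (adjusted p = 0.0126). Of 8 tested between iCEC and pCEC, 3 were higher in iCEC (Slpi, Spink5 and Wfdc2) and 2 lower (Spink7 and Cst6), beside 10.5% and 9.92% of all genes.

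Some of the junction and envelope proteins that kallikreins are known to cut were higher in pCEC than in iCEC. Of 7 such genes, all 3 tested were higher in iCEC than in pNCC, beside 16.1% of all genes, and all 5 tested were higher in pCEC, beside 30.3%. Dsg1a, Dsg1b and Dsc1 stood at 0 to 0.187 CPM in pNCC. Where tested against pNCC, they passed the filter only through the other group, so a difference was built in. Between iCEC and pCEC 3 of 5 tested were lower in iCEC, beside 9.92% of all genes. Their summed level was 889.3, 886.6 and 1243 CPM in pCEC 2, pCEC 3 and pCEC 1 and 29.8, 58.2 and 97.2 CPM in iCEC 1, 2 and 3. The pCEC sums were mainly the desmoglein Dsg1a (796.5 to 1126 CPM). Corneodesmosin (Cdsn) stood at 10.5, 45.1 and 87.6 CPM in iCEC and 13.3, 12.9 and 26.1 CPM in pCEC, and made up most of the iCEC 3 sum, whereas Dsg1b was lowest in iCEC 3 of the iCEC libraries (0.655 CPM). Of 6 plasminogen activation genes tested against pNCC, 1 was higher and 1 lower in iCEC, near the 16.1% and 15.1% of all genes, and 1 was higher and 4 lower in pCEC, beside 30.3% and 32.2% of all genes. Serpine2, an extracellular inhibitor of thrombin and plasminogen activators, was 538-fold higher in iCEC than in pCEC (adjusted p = 0.00211), and the urokinase receptor Plaur 13.7-fold higher (adjusted p = 0.0148). Of the peptidases that clade B serpins bind, 1 of 7 tested was higher and 2 lower in iCEC, and 2 were higher and 2 lower in pCEC. These counts too stand beside 16.1% and 15.1% of all genes in iCEC and 30.3% and 32.2% in pCEC. The inflammatory protease Casp1 was 20.6-fold higher in iCEC than in pNCC (adjusted p = 0.000940).

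Of 11 transcription factors of surface epithelia, 9 of 10 tested were higher in iCEC than in pNCC and 1 was not called, and 11 of 11 were higher in pCEC. The share of all genes called higher was 16.1% in iCEC and 30.3% in pCEC. Grhl1, Grhl2, Grhl3, Ehf, Elf3, Ovol1, Ovol2 and Pax6 stood at 0 to 0.293 CPM in pNCC. Where tested, they passed the filter only through the other group, so a difference was built in. Trp63, needed for stratified epithelia, was 188-fold higher in iCEC and 274-fold higher in pCEC (adjusted p = 0.000268 and 1.37e-06). In iCEC against pCEC 3 of the 11 were lower (Pax6, Klf4 and Ovol1), beside 9.92% of all genes, and 8 were not called. Outside the genes chosen by symbol, the transmembrane protease hepsin (Hpn) was 21.7-fold higher in iCEC than in pNCC, at 2.71 ± 1.84 CPM against 0.117 ± 0.057 CPM (adjusted p = 0.00795).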

How the data were processed

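RNA was sequenced from 9 mouse libraries, 3 each of pNCC, iCEC and pCEC, as paired reads of 150 bases per the labels. The values are raw read counts for each gene symbol, deposited by the authors as whole numbers with no normalization. Per the submitters' processing notes reads were placed on mm10 and edgeR was among the tools. The aligner, the counting tool, its use of strand and the annotation are not given in the sources used here. Among counts from 1 to 20, 68.3% to 73.0% were even in each library, against 51.0% to 52.5% above 200, so counts may not be independent reads, and counting intervals and floors, which cover counting error only, may be too narrow.

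Groups and replicate numbers came from the sample titles. The genes and the lists of related genes were chosen with earlier results of these data known. Each comparison was fitted on its own 6 libraries in R 4.3.3 with edgeR 4.0.16 (filterByExpr, TMM scaling, robust quasi-likelihood test, 2-sided), and p-values were adjusted by Benjamini-Hochberg over every gene in the fit (threshold 0.05). SE is approximate: the size of the log2 fold change over the root of its F statistic. CPM is the count divided by the library's total, without TMM. A fold against a group at 0 is a lower bound at 3 counts per library, a fold against 1 to 3 counts is the summed counts' ratio and its exact 95% interval, and other folds are from the fit. Levels of different genes were compared per kilobase of merged exons (GENCODE M21, 63 of 64 symbols matched), and promoters came from RefSeq on GRCm38.p6.

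Values in every library were given for genes with a mean of at least 10 CPM in a group, tests for those of them that were called, and other genes by range, with the 3 smallest adjusted p of each comparison. At most 3 called genes with the smallest adjusted p were named per list. Alternatives were DESeq2 size factors, DESeq2 1.42.0, total counts in place of TMM, no filter, a filter of 1 CPM in 3 libraries, 1 fit over 9 libraries, each library left out, a block for the replicate number, and pCEC by its polyA library alone. The fit was tested on simulated data. Tables and figures were made in Python 3.11.15.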

Additional observations from a re-analysis of the deposited data

How the results depend on the processing

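Leaving out 1 library at a time moved several counts. Genes called between iCEC and pNCC (5093) ran from 2322 without pNCC 2 to 7684 without iCEC 3, and the proteases and inhibitors called higher in iCEC (26) from 13 to 30, with 0 to 0 called lower. Between pCEC and pNCC the ranges were 9207 to 10687 genes (10382), 28 to 29 called higher (28) and 3 to 5 lower (4). Between iCEC and pCEC they were 1131 to 4974 genes (3327), 4 to 11 higher (7) and 0 to 5 lower (4). With the replicate number as a block, 2864 genes were called between iCEC and pNCC and 1298 between iCEC and pCEC, where 4 of the genes described were higher and 2 lower. Deviations of libraries with the same number correlated between -0.215 and 0.067. With 3 libraries per group such correlations cannot tell whether equal numbers are paired, and the labels do not say. With pCEC by its polyA library alone, edgeR called 0 genes between iCEC and pCEC, 0 of those described being higher and 0 lower, against 1341 higher and 1188 lower of all genes at an unadjusted p under 0.05. The cause of these shifts was not tested.

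Signs changed only for differences that were not called. With 1 library left out, the log2 fold change of Serpinb6a between iCEC and pNCC ran from -0.33 to 0.039 (above 0 without pNCC 3). Between iCEC and pCEC it ran from -0.93 to 0.83 for Klk11, -0.94 to 0.99 for Prss27 and -0.14 to 0.70 for St14 (all below 0 without iCEC 2), from -0.525 to 0.052 for Serpinb8 (above 0 without iCEC 3) and from -0.51 to 0.26 for Spint1 (above 0 without iCEC 1, iCEC 3 or pCEC 3). With the block it was -0.71 for Klk11 and -0.78 for Prss27, with the polyA library alone -0.11 for Prss27 and 0.20 for Spint1, and by total counts 0.042 for Spint1. Scaling by total counts moved the median of all genes by 0.126 between iCEC and pCEC and by -0.129 between pCEC and pNCC. Ranking by CPM in place of CPM per kilobase kept 9, 8 and 9 of the top 10 genes in pNCC, iCEC and pCEC. Differences under the worth of 3 counts were not detectable at this depth.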

Other observations

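Markers of other cell types gave values that belong in none of the comparisons. The summed CPM of 6 mast cell markers was 12.6, 140.0 and 241.8 in iCEC 1, 2 and 3, 192.3 to 274.9 in pCEC and 1.17 to 1.74 in pNCC. In iCEC and pCEC this sum was almost wholly Kit, a receptor that other cell types also make. Mcpt4, Tpsb2, Fcer1a and Ms4a2 were at 0 in every iCEC library and at no more than 0.0555 CPM in pCEC. Cpa3 was higher in pCEC, at 4.399, 2.496 and 2.556 CPM in pCEC 1, 2 and 3. It stood at 0.02855 to 0.5595 CPM in pNCC and at no more than 0.05449 CPM in iCEC. Of the 6 markers, 2 were tested in pCEC against pNCC, and 2 were called higher in pCEC. The sum of 8 neural crest and mesenchyme markers was 85.1 to 118.7 CPM in iCEC, 17672 to 21684 CPM in pNCC and 306.5, 4181 and 2173 CPM in pCEC 1, 2 and 3. The pCEC sums were mostly the collagen Col1a1, at 247.3, 4013 and 2041 CPM, and the crest factors Sox10 and Foxd3 were at no more than 0.444 CPM there. Another crest factor, Tfap2b, ran the other way, at 18.19, 38.02 and 20.15 CPM in pCEC and 5.35, 8.68 and 1.26 CPM in pNCC. In iCEC 3 Tfap2b stood at 54.7 CPM, most of that library's sum, and it was at 0 in iCEC 1 and iCEC 2. The lowest Col1a1 level in pCEC is that of the library labelled polyA RNA.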
